A study of Homo sapiens with 6 samples.

Results

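The 9 genes described here are targets of the transcription factor NRF2, namely NQO1, TXNRD1, TXN, GCLC, GCLM, SLC7A11, PGD, ME1 and HMOX1. All but NQO1 and HMOX1 act in glutathione synthesis, the thioredoxin system or NADPH supply. NQO1 reduces quinones and HMOX1 breaks down haem. The 9 genes were measured in A549 cells, an established human lung adenocarcinoma line, after a short exposure to cisplatin. They were chosen by gene symbol, and each of the 9 symbols had 1 probe set, so that 9 of the 8746 probe sets of the array besides its controls were members. On 3 arrays, cisplatin 1 to 3, the cells had been exposed for 1 hour to cisplatin at 50 µM, a platinum compound that forms DNA crosslinks. On the other 3 arrays, control 1 to 3, they had been kept in drug-free medium. Cells of both groups were washed and kept for a further 10 hours without drug, and the series description gives 3 independent experiments. All cultures were of 1 line.

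NRF2 is held in the cytoplasm by KEAP1, which delivers it to a ubiquitin ligase. Electrophiles and oxidants that modify KEAP1 release NRF2, which then pairs with small MAF proteins on antioxidant response elements. A549 cells carry a mutated KEAP1 and are widely used as a line with high basal NRF2 activity. Cisplatin reacts with thiols, and glutathione binds it in the cytosol. Apart from NQO1 and HMOX1, the genes thus encode proteins on which the thiol pools that meet the drug depend.

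Promoter windows of RefSeq (GRCh38.p14) each reach from 250 bases before to 50 bases after a gene's start. They were searched on both strands for the core of the antioxidant response element, written TGACNNNGC. Sequence farther upstream was not searched. The table held 8 windows for 7 of the genes, PGD, GCLM, GCLC, ME1, TXN, NQO1 and TXNRD1, the last with 2. A match was found in 5 of the 8 windows, in 4 genes, against 13.3% of all 35116 windows. The windows of GCLC, TXN and NQO1 held none, and SLC7A11 and HMOX1 had no window. The genes were chosen as NRF2 targets, so this share is no independent evidence. The matches that lie wholly upstream of a start are printed in the direction of the gene, with the matched letters in capitals, which read GCNNNGTCA where the element lies on the other strand.
GCLM, chr1:93909431-93909489, minus strand: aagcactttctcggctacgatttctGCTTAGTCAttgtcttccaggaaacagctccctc
TXNRD1, upstream start, chr12:104215655-104215713, plus strand: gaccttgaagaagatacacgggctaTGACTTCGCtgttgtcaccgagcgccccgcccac
TXNRD1, downstream start, chr12:104286905-104286963, plus strand: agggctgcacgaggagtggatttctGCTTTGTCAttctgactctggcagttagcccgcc
ME1, chr6:83431155-83431213, minus strand: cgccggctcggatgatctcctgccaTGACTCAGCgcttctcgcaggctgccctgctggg
PGD, chr1:10398838-10398896, plus strand: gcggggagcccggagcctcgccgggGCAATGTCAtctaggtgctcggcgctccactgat
A further match in the upstream TXNRD1 window reached over the start, and another in the ME1 window lay after it; both are left out above. The match of GCLM lay 34 to 26 bases before the start and that of ME1 137 to 129 bases before it. The ME1 match overlaps an AP-1 site, TGANTCA, which 7.71% of all windows hold. In both TXNRD1 windows a match lay about the same distance from the start, 99 to 91 and 102 to 94 bases. These matches describe the letters of the windows and are no measure of binding.

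The comparison asked whether these genes differ 10 hours after cisplatin. None of the 9 passed limma at an adjusted p of 0.05, where 0.29% of the 6559 tested probe sets passed, 0.213% higher and 0.0762% lower, and the adjusted p was 0.999 for each of the 9. Their log2 folds lay between -0.13 for ME1 and 0.11 for TXN, with 5 above 0 and 4 below; 3 were above 0 with the 75th percentiles of the arrays made equal, and 1 with their medians made equal. The median log2 fold of the 9 was 0.03, beside 0.04 over all tested probe sets. The median size of a log2 fold, without its sign, was 0.05 for the 9, beside 0.11 over all tested probe sets and 0.07 over the 1987 that were at least as bright as the dimmest member. At an unadjusted p under 0.05 there were 0 of the 9 in limma, beside 5.03% of all tested probe sets. On the same arrays CDKN1A, the cyclin-dependent kinase inhibitor induced by p53, read 1467, 1370.3 and 1429 on cisplatin 1 to 3 and 249, 281 and 241 on control 1 to 3. The log2 fold of CDKN1A was 2.42 (SE 0.10, adjusted p = 4.74e-06 in limma), the largest in size of all tested probe sets.

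**Figure D1:**
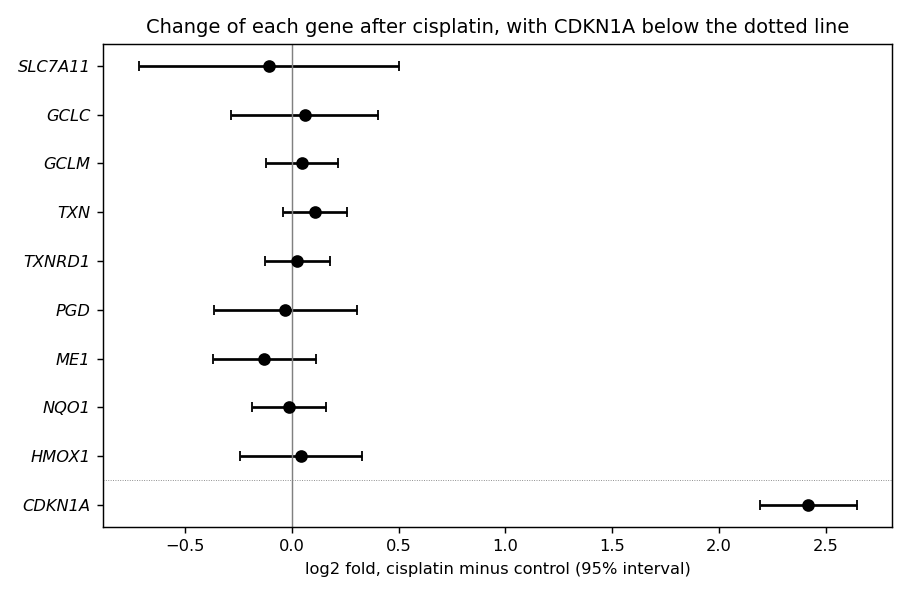
Log2 fold, cisplatin minus control, of the 9 genes and of CDKN1A; points are the values of the limma fit and bars their 95% intervals (3 arrays a group). The intervals of the 9 genes all include 0, that of SLC7A11 is the widest among them, and CDKN1A lies at 2.42.

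All 9 probe sets were bright enough to be tested. Ranked by mean control intensity among the 8746 probe sets they lay between the 77.1st percentile for HMOX1 and the 98.8th for TXNRD1. Brightness depends on the probes as well as on the transcript, so it gives no order of transcript amounts. Nor did brightness alone set the spread of a member. SLC7A11, at the 95.7th percentile, had a residual SD of 0.49 on the log2 scale, beside 0.12 for HMOX1 and 0.08 for TXNRD1. With 3 arrays a group an exact permutation test cannot go below 0.1, so single genes were judged by the fit across all probe sets.

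Glutathione synthesis begins with cystine uptake by SLC7A11, the transport subunit of the cystine/glutamate exchanger xCT. Its probe set (209921_at) read 1491, 965 and 1027 on cisplatin 1 to 3 and 747, 1515 and 1628 on control 1 to 3. The groups overlapped, with the lowest and the highest value both among the controls. The means were 1161 ± 287 after cisplatin and 1297 ± 479 in control cells (mean ± SD, n = 3 each), and the log2 fold was -0.11 (SE 0.27, adjusted p = 0.999 in limma). Its highest control value was 2.18 times its lowest. Only 2.71% of all tested probe sets had a larger residual SD, so the 95% interval, a fold of 0.609 to 1.42, was the widest of the 9.

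The ligase that joins glutamate to cysteine, the rate-limiting step of glutathione synthesis, has a catalytic subunit encoded by GCLC and a modifier subunit encoded by GCLM. GCLC (202922_at) read 324, 308 and 257 on cisplatin 1 to 3 and 237, 282 and 338 on control 1 to 3, so that the controls enclosed all 3 cisplatin values. Its log2 fold was 0.06 (SE 0.15), a fold of 1.04 with an interval of 0.821 to 1.32. GCLM was the member with the least spread. It (203925_at) read 1180.5, 1239 and 1213 on cisplatin 1 to 3 and 1167, 1186 and 1154 on control 1 to 3. Its log2 fold was 0.05 (SE 0.08), a fold of 1.03 with an interval of 0.921 to 1.16. Only cisplatin 1, which fell within the control range, kept the GCLM groups from being fully apart, although the means, 1211 ± 29.3 after cisplatin and 1169 ± 16.2 in control cells, were close.

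Thioredoxin, encoded by TXN, reduces protein disulfides, and the selenoenzyme thioredoxin reductase, encoded by TXNRD1, restores it with electrons from NADPH. TXN (208864_s_at) read 2883, 2903 and 2657 on cisplatin 1 to 3 and 2563, 2511 and 2743 on control 1 to 3. Cisplatin 1 and 2 lay above all controls and cisplatin 3 lay below control 3. TXN had the lowest unadjusted p of the 9 in limma, 0.131, with a log2 fold of 0.11 (SE 0.07), which is a fold of 1.08 with an interval of 0.973 to 1.20. TXNRD1 (201266_at) read 3229.5, 2946 and 3087 on cisplatin 1 to 3 and 2948, 3259 and 2899.5 on control 1 to 3. Its cisplatin values all lay inside the control range. The log2 fold of TXNRD1 was 0.03 (SE 0.07), and its interval, a fold of 0.915 to 1.13, was the narrowest of the 9 on the log2 scale apart from that of TXN.

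NADPH is supplied by PGD, the 6-phosphogluconate dehydrogenase of the pentose phosphate pathway, and by ME1, the cytosolic malic enzyme. PGD (201118_at) read 742, 922 and 805 on cisplatin 1 to 3 and 1010.4, 867 and 670.0 on control 1 to 3. As with SLC7A11, the controls held both the lowest and the highest value. The log2 fold of PGD was -0.03 (SE 0.15), a fold of 0.979 with an interval of 0.776 to 1.23. ME1 (204059_s_at) read 502, 471 and 499 on cisplatin 1 to 3 and 511, 601 and 505 on control 1 to 3. It was the only member whose groups did not overlap, by a gap between 502 on cisplatin 1 and 505 on control 3. Groups that did not overlap made up 11% of all tested probe sets, 7.42% with all cisplatin values above the controls and 3.57% with all below, so 1 of 9 is near the background. The ME1 means were 491 ± 17.3 after cisplatin and 539 ± 53.7 in control cells (mean ± SD, n = 3 each). Its log2 fold was -0.13 (SE 0.11, unadjusted p = 0.263, adjusted p = 0.999 in limma), which is a fold of 0.915 with an interval of 0.773 to 1.08.

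NQO1 reduces quinones with NADPH or NADH and is often used as a readout of NRF2 activity. Its probe set (201468_s_at) read 2487, 2599.8 and 2705 on cisplatin 1 to 3 and 2413, 2869 and 2589.6 on control 1 to 3. The cisplatin values all lay inside the control range. The log2 fold of NQO1 was -0.01 (SE 0.08), the smallest of the 9, and its interval was a fold of 0.880 to 1.12. HMOX1 encodes the inducible haem oxygenase, which opens haem to biliverdin and also answers to the repressor BACH1. It (203665_at) read 230.1, 249 and 229.8 on cisplatin 1 to 3 and 251, 238 and 201 on control 1 to 3. Here too the controls held the extremes, and the log2 fold was 0.04 (SE 0.13), a fold of 1.03 with an interval of 0.844 to 1.25.

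**Figure D2:**
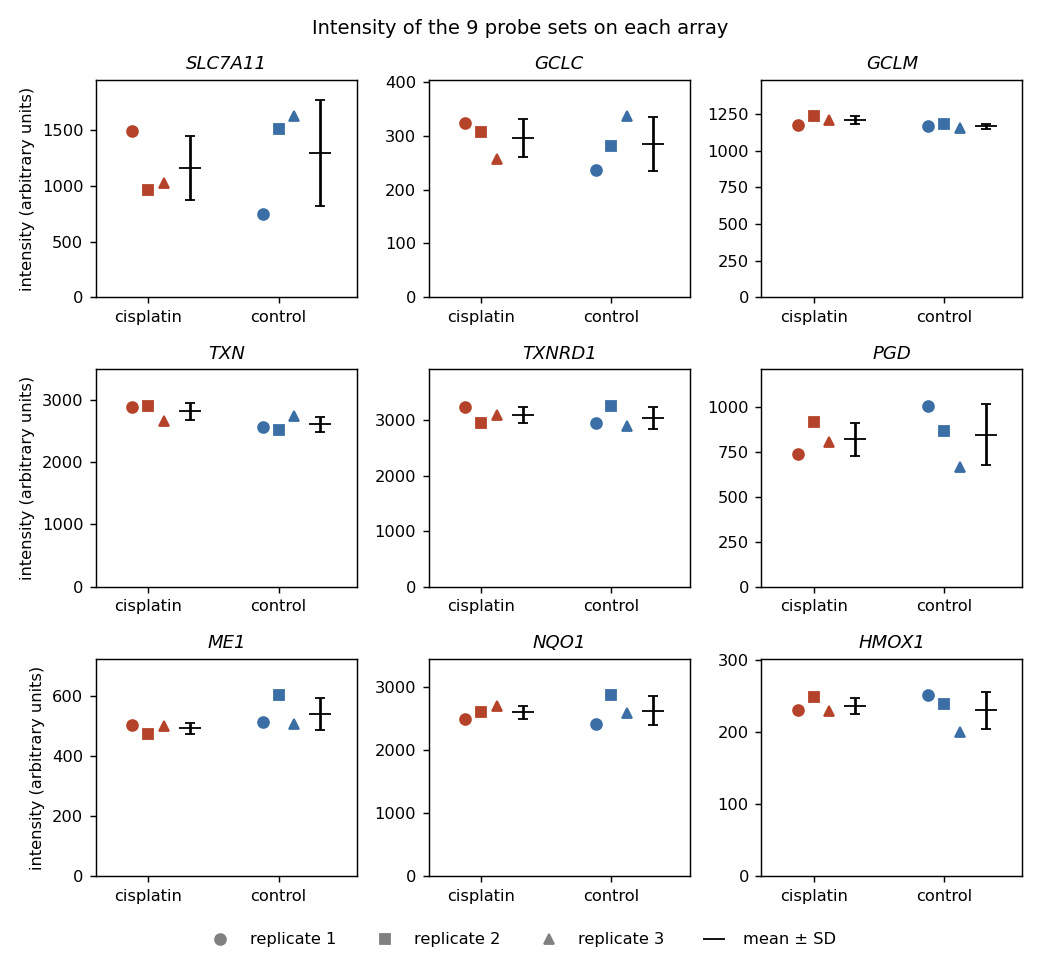
Deposited intensity (linear axis from 0, arbitrary units) of the 9 probe sets on each array, by group; symbols are replicate numbers, and the bar beside each group is its mean ± SD (n = 3). The groups overlap in 8 of the 9 panels, and in the ME1 panel they are parted by a gap between 502 and 505.

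The intervals set how large a difference could have been missed. For TXN, TXNRD1, NQO1 and GCLM they ended within folds of 0.880 and 1.20. For GCLC, PGD, HMOX1 and ME1 they reached down to 0.773 and up to 1.32. A fold as large as the 5.35 of CDKN1A lay outside all 9 intervals. A p above the threshold does not show that the transcripts were equal in both groups.

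The members did not all deviate together from array to array. On control 1, 7 of the 9 lay below their own means and 2 above, and on control 2, 3 lay below and 6 above. On each of the other arrays 4 to 6 lay below. On control 1 SLC7A11, GCLC and NQO1 had their lowest values of all 6 arrays, whereas PGD and HMOX1 had their highest. On control 3 the order was turned, with SLC7A11 and GCLC at their highest and PGD, HMOX1, TXNRD1 and GCLM at their lowest. The median deviation of the 9 from their own means lay between -0.05 on control 1 and 0.07 on control 2 on the log2 scale, and that of all tested probe sets between -0.05 and 0.03. On the first principal component of all tested probe sets, cisplatin 2 and control 1 had scores of 17.1 and 14.4, and the remaining 4 arrays had scores of -12.4 to -1.69. Within each group these were the arrays with the lowest SLC7A11 and the highest PGD. RNA integrity can be read from the control probe sets at the 3′ and 5′ ends of ACTB, whose 3′/5′ ratio was 3.67, 2.67 and 2.94 on cisplatin 1 to 3 and 2.20, 2.98 and 2.95 on control 1 to 3. It too was lowest on control 1 and, within the treated group, on cisplatin 2, and its part in the pattern of SLC7A11 was not tested beyond the fits given next.

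**Figure D3:**
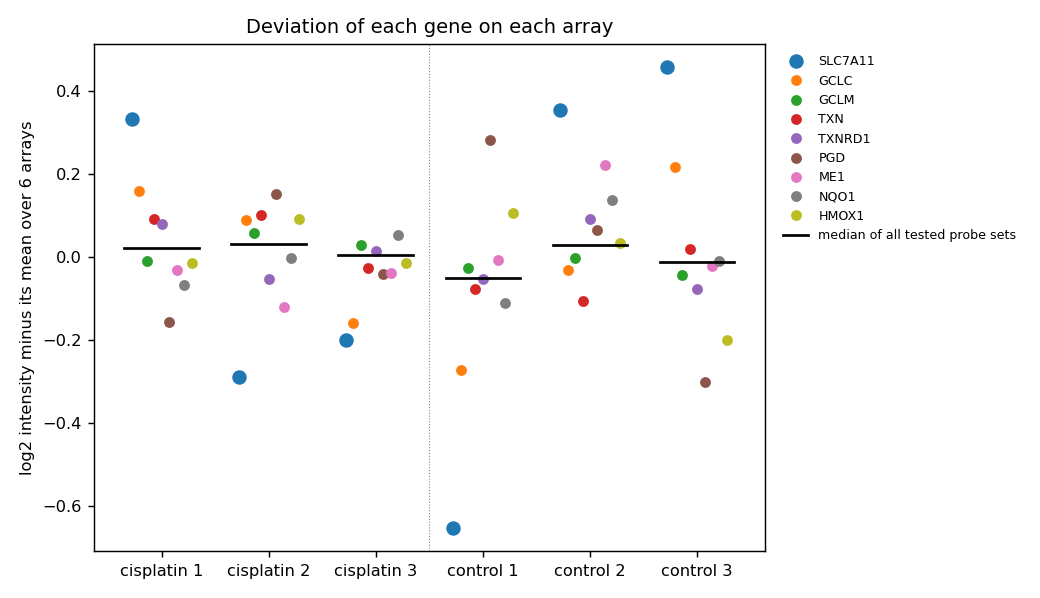
Log2 intensity of each of the 9 genes minus its mean over the 6 arrays (y axis), by array (x axis); black lines are the medians of all 6559 tested probe sets. SLC7A11 spans the widest range, lowest on control 1, where PGD is highest.

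The value of SLC7A11 depended on single arrays more than that of any other member in the fits without 1 array. Its log2 fold was -0.46 without control 1 (unadjusted p = 0.0135, adjusted p = 0.634 in limma) and 0.10 without control 3. It was also above 0 without control 2 (0.05) and without cisplatin 2 (0.01). Without cisplatin 1 it was -0.30, and without cisplatin 3 it was -0.03. With cisplatin 2 and control 1 both left out it was -0.34 (unadjusted p = 0.0410, adjusted p = 0.670). With the 3′/5′ ratio as a covariate it was -0.48 (SE 0.13, unadjusted p = 0.00256), and the adjusted p of 0.164 was the lowest of any member under any of the 18 alternatives. Of the other members, with cisplatin 2 and control 1 left out, log2 folds ran from -0.14 for ME1 to 0.08 for TXN, and GCLC (-0.09) and PGD (0.02) had the opposite sign to the fit of all arrays.

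The 3 genes outside the set whose log2 values followed the mean centred log2 of the 9 members most closely over the 6 arrays were ZNF148 (Pearson r = 0.994), RAD21 (0.988) and NFE2L2 (0.984). These correlations are descriptions over 6 arrays that include the arrays standing apart, and the mean of the members moves chiefly with SLC7A11. NFE2L2 encodes NRF2 itself. Its probe set (201146_at) read 206, 164 and 136 on cisplatin 1 to 3 and 103, 271 and 197 on control 1 to 3, so that the controls enclosed the treated values as they did for SLC7A11. The log2 fold of NFE2L2 was -0.09 (SE 0.29, adjusted p = 0.999 in limma), with an interval from a fold of 0.598 to one of 1.48. Like that of SLC7A11 it turned on single arrays, at -0.45 without control 1 (unadjusted p = 0.0409 in limma), 0.20 without control 2, 0.05 without cisplatin 3 and -0.44 without both cisplatin 2 and control 1.

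Of the 11 genes listed as regulators of NRF2, 10 had probe sets, 11 in all, and 0 of these passed. Their median log2 fold was -0.09, beside 0.04 over all tested probe sets, with 9 probe sets below 0 and 2 above. Those counts were the same under the 3 scalings between arrays. The 9 include both probe sets of SQSTM1, and that of BACH1 at -0.0005, which is the 39.5th percentile of all tested log2 folds. KEAP1 read 182, 136 and 204 on cisplatin 1 to 3 and 191, 204 and 169 on control 1 to 3, with a log2 fold of -0.12 (SE 0.16), which was 0.04 without cisplatin 2, 0.05 without both cisplatin 2 and control 1, 0.03 with array weights and -0.24 without cisplatin 3. SQSTM1 encodes p62, an autophagy receptor that binds KEAP1, and its probe sets differed. The dimmer one (213112_s_at) read 56.2, 65.7 and 70.2 on cisplatin 1 to 3 and 90.8, 104 and 79.8 on control 1 to 3. It did not overlap between the groups, with all cisplatin values below the controls, as in 3.57% of all tested probe sets. Its log2 fold of -0.44 had an unadjusted p of 0.0173 and an adjusted p of 0.734 in limma. The brighter one (201471_s_at) had a log2 fold of -0.13, which was -0.03 without control 1, and its groups overlapped. MAFF, a small MAF partner of NRF2, had a log2 fold of 0.32 (SE 0.18, unadjusted p = 0.0983, adjusted p = 0.999 in limma). All its cisplatin values lay above the control values, as in 7.42% of all tested probe sets. The probe set of MAFF is dim, and with an offset of 50 in place of 11.8 before log2 its log2 fold was 0.17. MAFG, another small MAF, went the other way, with a log2 fold of -0.22 (SE 0.13, unadjusted p = 0.122 in limma). All its cisplatin values lay below the control values, as in 3.57% of all tested probe sets. The mean control intensity of MAFG was 133, beside 25.7 for MAFF.

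Among other genes of glutathione, thioredoxin and NADPH supply, 21 of 28 listed had a probe set, 20 were tested and 0 passed. Their median log2 fold was 0.01, with 11 above 0 and 9 below (6 above 0 with equal medians of the arrays). Those with the lowest unadjusted p in limma were CTH, the last enzyme of the route from homocysteine to cysteine, with a log2 fold of 0.36 (unadjusted p = 0.0886) that was 0.19 with an offset of 50, and MTHFD2, a mitochondrial folate enzyme, with 0.14 (unadjusted p = 0.135) that was 0.07 with equal medians of the arrays. CTH was dim, with means of 35.2 ± 6.57 after cisplatin and 24.7 ± 4.11 in control cells. MTHFD2 was bright and had means of 1221 ± 71.8 after cisplatin and 1108 ± 50.6 in control cells.

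Of the listed conjugation and export targets, 16 of 17 were tested and 0 passed, with 8 log2 folds above 0 and 8 below and a median of -0.01; with equal medians of the arrays 3 were above 0. OSGIN1, an oxidative stress-induced growth inhibitor, and TRIM16, a tripartite motif protein, both known as NRF2 targets, had the lowest unadjusted p. OSGIN1 read 45.0, 43.6 and 55.6 on cisplatin 1 to 3 and 68.0, 71.4 and 59.8 on control 1 to 3, without overlap. In 3.57% of all tested probe sets all cisplatin values likewise lay below the controls. OSGIN1 was lower after cisplatin. Its log2 fold was -0.39 (SE 0.16, unadjusted p = 0.0331, adjusted p = 0.869 in limma), and -0.25 with an offset of 50. TRIM16 read 1393, 1438 and 1522 on cisplatin 1 to 3 and 1892, 1732 and 1491 on control 1 to 3, with cisplatin 3 above control 3. Its log2 fold was -0.23 (SE 0.10, unadjusted p = 0.0426, adjusted p = 0.935), and -0.15 without control 1.

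The members were also set beside relatives of similar function. Of 9 such genes 8 were tested and 0 passed, and TXNRD2, the mitochondrial thioredoxin reductase, was too dim to be tested. TXN2, the mitochondrial thioredoxin, had a log2 fold of 0.16 (SE 0.12), and its cytosolic counterpart TXN had 0.11 (SE 0.07). ME2 and ME3, the mitochondrial malic enzymes, had log2 folds of 0.07 and -0.11. NQO2, a second quinone reductase, and HMOX2, the constitutive haem oxygenase, both had 0.04. Of the amino acid transporters related to SLC7A11, SLC7A5 had a log2 fold of -0.15, SLC7A6 of 0.17 and SLC7A8 of 0.09. The signs for ME2, NQO2, HMOX2 and SLC7A8 each turned under at least 1 alternative. SLC7A5 had the lowest unadjusted p of the relatives, 0.0649 (adjusted p = 0.982 in limma), with means of 2233 ± 56.7 after cisplatin and 2483 ± 176 in control cells. Its groups did not overlap, with all cisplatin values below the controls, as in 3.57% of all tested probe sets.

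**Figure D4:**
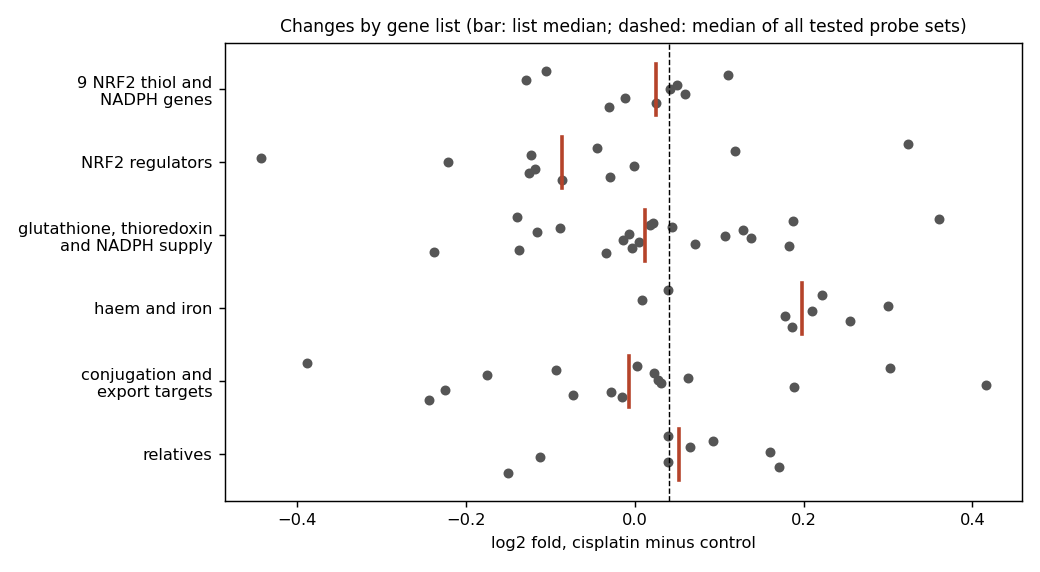
Log2 fold, cisplatin minus control (x axis), of each tested probe set in the 9-gene set and in 5 lists of related genes (rows); red bars are list medians and the dashed line is the median of all tested probe sets, 0.04. None of the points passed the threshold, and the 8 haem and iron genes lie above 0 with the arrays as deposited, but 6 of 8 do with equal medians.

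The arrays carried the epithelial keratins KRT8, KRT18 and KRT7, with summed intensities of the 6 epithelial markers of 8513 to 11090.3 on the cisplatin arrays and 8871 to 11245 on the control arrays. KRT19 had a mean control intensity of 131, and EPCAM and CDH1 were dim, with mean control intensities of 33.3 and 37.3. Of the markers this line should lack, CD3D read 65.2, PECAM1 61.2 and COL1A1 102 in the control mean, each the brightest of its list. CD14 read 46.9, CD3E 39.7 and CD2 36.0. PTPRC read 10.1, CDH5 7.34, VWF 13.7 and COL3A1 1.25, all too dim to be tested. Intensities of different probes cannot be ranked as transcript levels. Over all arrays the median intensity lay between 57.2 and 67.2 and the 75th percentile between 191 and 214. Groups of 3 arrays limit the precision of every value, and in bulk RNA fewer cells of a kind cannot be told apart from less RNA per cell.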

How the data were processed

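Total RNA of A549 cells was labelled with biotin after oligo-dT priming, per the labels' protocols, and hybridised to 6 short-oligonucleotide arrays. The authors deposited 1 linear intensity per probe set and array, of which 723 (1.37%) were at or below 0, so some signal had been subtracted. What was subtracted, how probes were summarised, and whether arrays were scaled, is not given in the sources used.

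Values at or below 0 were set to 0, an offset of 11.8 (the 10th percentile of positive values) was added, and log2 was taken. The arrays were used as deposited, since their 75th percentiles spanned 0.15 on the log2 scale, under the limit of 0.3. Control probe sets (47) were left out, and 6559 of the remaining 8746, those whose mean log2 reached the 25th percentile, were tested. Gene names came from the platform's probe table, which gave 7840 probe sets 1 symbol, 388 several and 518 none; 7838 matched RefSeq by Entrez identifier, and 0 symbols changed. Promoter windows are those of RefSeq for GRCh38.p14.

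The treated and control arrays were compared with limma 3.58.1 in R 4.3.3 (lmFit, eBayes with an intensity trend), two-sided, with Benjamini-Hochberg adjustment over all tested probe sets at 0.05, and 4 residual and 5.54 prior degrees of freedom. Folds and 95% intervals come from this fit, offset included, and means ± SD are of the deposited intensities. The fit was tested on simulated data. Figures used matplotlib 3.10.9 and Python 3.11.15. Besides the 9 members the text names CDKN1A, NFE2L2, KEAP1, the relatives, in each list the probe sets past the threshold or, where 0 passed, those 2 with the lowest unadjusted p, and the 3 genes closest in pattern; the cell markers come from the marker list. BLVRB and MAFG, outside this rule, were named after their values were seen. Members and lists were chosen with earlier results of these data known. Alternatives covered scaling, offset, filter, variance prior, array weights, the replicate number as a block, the RNA integrity ratio as a covariate and leaving out arrays.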

Additional observations from a re-analysis of the deposited data

How the results depend on the processing

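None of the 9 members passed the threshold under any of 18 alternatives, in 162 values of which 137 kept the sign found with all arrays. TXN stayed above 0 and ME1 below 0 in all 18 of their values. The median log2 fold of the 9 was -0.0469 with arrays centred on the median, where 1 of the 9 was above 0 and the median of all tested probe sets was -0.03. None of the other named genes that had missed the threshold passed under an alternative. Against 14 probe sets higher and 5 lower over the whole array, 14 and 8 passed with equal 75th percentiles, 8 and 3 with median centring, 11 and 2 without the filter, 7 and 1 without the intensity trend, 29 and 15 with array weights, 22 and 15 with the 3′/5′ covariate, and 18 and 2 without cisplatin 2 and control 1; the cause was not tested. In the fits without 1 array, which hold fewer arrays, 6 to 15 were higher and 0 to 3 lower, and the median of the 9 ran from -0.01 to 0.06. With the replicate number as a block, 5 were higher and 0 lower, and 0 of the 9 passed. Nothing in the labels ties equal numbers to 1 experiment. Deviations of equal-numbered arrays correlated at -0.56, -0.31 and -0.12, and 0 of 6 arrays deviated most like its own number. The subtraction of signal before deposit may limit dim probe sets such as CTH more than the 9 members, which was not tested.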

Other observations

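HMOX1 breaks down haem, and other genes of haem and iron were also measured. None of 8 tested haem and iron genes passed in limma, where 1 reached an unadjusted p under 0.05, as did 5.03% of all tested probe sets. The median log2 fold was 0.20, beside 0.04 over all tested probe sets. All 8 were above 0 as deposited and after quantile normalization, and 6 of 8 with equal medians or equal 75th percentiles. ALAS1, the first and rate-limiting enzyme of haem synthesis, read 245, 215 and 221 on cisplatin 1 to 3 and 169, 204 and 174 on control 1 to 3, a log2 fold of 0.30 (SE 0.13, unadjusted p = 0.0430, adjusted p = 0.936). UROD, a later enzyme of the same pathway, read 211, 210.3 and 223 on cisplatin 1 to 3 and 185, 191 and 172 on control 1 to 3, a log2 fold of 0.22 (SE 0.12, adjusted p = 0.999). BLVRB, a biliverdin reductase, had a log2 fold of 0.19 (SE 0.10, adjusted p = 0.999). Of the 8 genes, these 3 were the only ones whose groups did not overlap, with all cisplatin values higher. This was the case for 7.42% of all tested probe sets. BLVRB was named after its values were seen, and the groups of FECH, CPOX, BLVRA, HMOX2 and TFRC overlapped.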
